A study of Mus musculus with 18 samples.

Results

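The genes described here encode the proteins of the cytosolic ribosome. They were chosen by name: a gene entered when its probe set carried a single platform symbol of the form Rpl or Rps followed by a number and at most a short suffix, or Rplp0 to Rplp2, or Rpsa. The kinases of the Rps6k family and pseudogenes were thereby left out. The rule found 48 of the 18194 genes named on the arrays, and each is represented by its probe set of highest mean signal. Of the 48, 46 passed the filter on low signal and were tested among 11106 genes. Rps16, with signals from 0.4 to 10.4, and the muscle paralog Rpl3l, with signals from 0.7 to 18.1, did not pass. Rplp1, Rpl5, Rps27a, Rpl3, Rpl10 and Rpl36a had no probe set with a single symbol and were not analysed here.

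RNA was measured in CD23+ B cells from the spleens of C57BL/6J mice with Affymetrix Mouse Genome 430 2.0 arrays. The mice had been given PF-303, an inhibitor of the kinase BTK that relays B-cell receptor signals, or its vehicle. An antibody against IgD, which crosslinks the receptor of mature B cells in the animal, or PBS followed after 2 h, and cells were taken 2 h later. There were 5 samples of anti-IgD with PF-303, 4 samples of anti-IgD with vehicle, 5 samples of PBS with PF-303 and 4 samples of PBS with vehicle. All mice were of the same strain, and the labels give neither doses nor ages. Whether every sample is a different mouse is not given in the labels, and the p-values reflect only the variation among the samples at hand, some of which may be technical. The 6 B-cell markers found among those listed, Fcer2a (CD23) included, all passed the filter, and their summed signal lay between 11700 and 30900 on every array. The summed signal of the 6 T-cell markers found lay between 42.8 and 119.

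The cytosolic ribosome is built from a small and a large subunit, each of ribosomal RNA and many proteins that are needed in equal numbers. Messenger RNAs of ribosomal proteins usually start with a cytosine followed by a run of pyrimidines, the 5′ terminal oligopyrimidine (TOP) motif. Through this motif the kinase complex mTORC1 and the RNA-binding protein LARP1 set how much of each message is translated and how stable it is. Lymphocytes that leave rest enlarge and make new ribosomes, and MYC is a known activator of genes for ribosome assembly. An array measures the amount of message, not its translation.

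Start sites of 13 members are printed because the described results turn on these genes or because they carry a typical TOP start. Each stretch runs from 10 bases before to 20 bases from the start of the RefSeq gene on GRCm38.p6, so that the annotated start is base 11, and is written in the direction of transcription. Capitals mark the longest run that opens with C, goes on with at least 4 pyrimidines and begins within 10 bases of the start. Stretches wholly in lower case had no such run.
Rpl12: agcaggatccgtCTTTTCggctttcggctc
Rps25: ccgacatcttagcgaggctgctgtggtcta
Rpl7l1: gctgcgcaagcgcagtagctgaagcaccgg
Rps27l: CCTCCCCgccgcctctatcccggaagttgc
Rpl39l: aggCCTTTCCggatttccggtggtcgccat
Rps2: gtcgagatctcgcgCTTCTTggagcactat
Rpl13a: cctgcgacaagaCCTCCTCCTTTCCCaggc
Rplp2: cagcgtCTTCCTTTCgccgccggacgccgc
Rpl38: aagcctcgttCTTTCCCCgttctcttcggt
Rps6: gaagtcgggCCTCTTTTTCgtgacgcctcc
Rps10: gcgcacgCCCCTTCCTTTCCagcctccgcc
Rps18: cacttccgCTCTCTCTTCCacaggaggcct
Rpl35: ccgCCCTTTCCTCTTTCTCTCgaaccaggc
The positions are chr2:32961702-32961731 (plus strand) for Rpl12, chr9:44407704-44407733 (plus) for Rps25, chr17:46782637-46782666 (minus) for Rpl7l1, chr9:66946076-66946105 (plus) for Rps27l and chr16:10170218-10170247 (plus) for Rpl39l. They are chr17:24720053-24720082 (plus) for Rps2, chr7:45128726-45128755 (minus) for Rpl13a, chr7:141447641-141447670 (plus) for Rplp2 and chr11:114668570-114668599 (plus) for Rpl38. The remaining stretches lie at chr4:86857348-86857377 (minus) for Rps6, chr17:27635225-27635254 (minus) for Rps10, chr17:33955646-33955675 (minus) for Rps18 and chr2:39005112-39005141 (minus) for Rpl35.

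RefSeq promoter sequences were found for 42 of the 48 members. The annotated start was itself a C followed by at least 4 pyrimidines in 8 of 42 members (19.0%), against 673 of 27025 promoters of all genes (2.49%). In most of the 8, such as Rps10 and Rpl35, that C lies inside a run that opens upstream of the start. A run began within 10 bases of the start in 25 of 42 members (59.5%), against 30.8% of all promoters. These shares were higher among the members than among promoters at large, and an annotated start may lie some bases from the one used in B cells. The letters CCGGAAG, a core bound by ETS-family factors, stood on either strand of the window from 250 bases before to 50 after the start in 20 of 42 members (47.6%), against 9.12% of all promoters. Among the 13 members shown, Rps25, Rps27l, Rpl39l, Rps2, Rplp2, Rpl38, Rps6, Rps10, Rps18 and Rpl35 held these letters. CACGTG, the E-box that MYC and other factors bind, stood in 3 members (7.14%) and in 7.24% of all promoters. AAGATGGC, a core of the YY1 motif, stood in 3 members (7.14%) and in 2.88% of all promoters. These matches describe the letters in the window and were not tested against the changes in signal.

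The members fell into 35 genes of strong signal (mean over 18 arrays of at least 1000) and 13 of weak signal. The strongest were Rps29, with a mean signal of 11890, Rpl13a with 11280 and Rpl38 with 10070. The strong-signal genes comprised 18 large-subunit and 17 small-subunit proteins, and their probe sets mostly carried the suffix _a_at (15) or _x_at (14), Affymetrix marks for probes shared between transcripts of a gene or open to cross-hybridisation. Of the 13 weak-signal probe sets, 12 carried the plain suffix _at. Ribosomal protein genes have many processed pseudogenes, so a suffixed probe set may also read those. Signals of different probe sets differ in probe affinity, so this order is one of signal and not of the amount of message.

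In 6 arrays the signal of 9 spike-in control probe sets exceeded 2 times its median over all arrays, by factors of 2.17 to 3.83, against 0.541 to 1.51 times in the other 12. Of these 6 arrays, 2 held cells from anti-IgD with PF-303 (replicates 1 and 3), 2 from PBS with PF-303 (3 and 4) and 2 from PBS with vehicle (3 and 4), and 0 from anti-IgD with vehicle. The median log2(signal + 16) of the strong-signal members moved with this split. It was 13.34, 12.80, 13.46, 12.95 and 12.65 in anti-IgD with PF-303, and 12.59, 12.74, 12.35 and 12.67 in anti-IgD with vehicle. It was 12.74, 12.42, 13.50, 13.41 and 12.47 in PBS with PF-303, and 12.46, 12.62, 13.26 and 13.43 in PBS with vehicle. The 6 arrays lay between 13.26 and 13.50 and the other 12 between 12.35 and 12.95, so the sets did not overlap. Without the 6 arrays the means were 12.80 in anti-IgD with PF-303 and 12.59 in anti-IgD with vehicle. They were 12.54 in PBS with PF-303 and 12.54 in PBS with vehicle. Leaving out the 6 arrays kept 3, 4, 3 and 2 arrays in these groups, in that order. Comparisons with PBS and vehicle given without the 6 arrays thus rest on 2 arrays of that group. The strong-signal members held 4.26% to 4.84% of all summed signal in the 6 arrays and 2.58% to 3.54% in the others. The ratio of the 3′ to the 5′ probe sets of Actb had a median of 1.30 in the 6 arrays and 1.18 in the others. For Gapdh these medians were 0.77 and 0.75, and the ranges overlapped (0.698 to 1.22 and 0.703 to 0.826). The part of this split in the results was not tested beyond the values given without the 6 arrays and with the spike-in signal as a covariate.

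**Figure D1:**
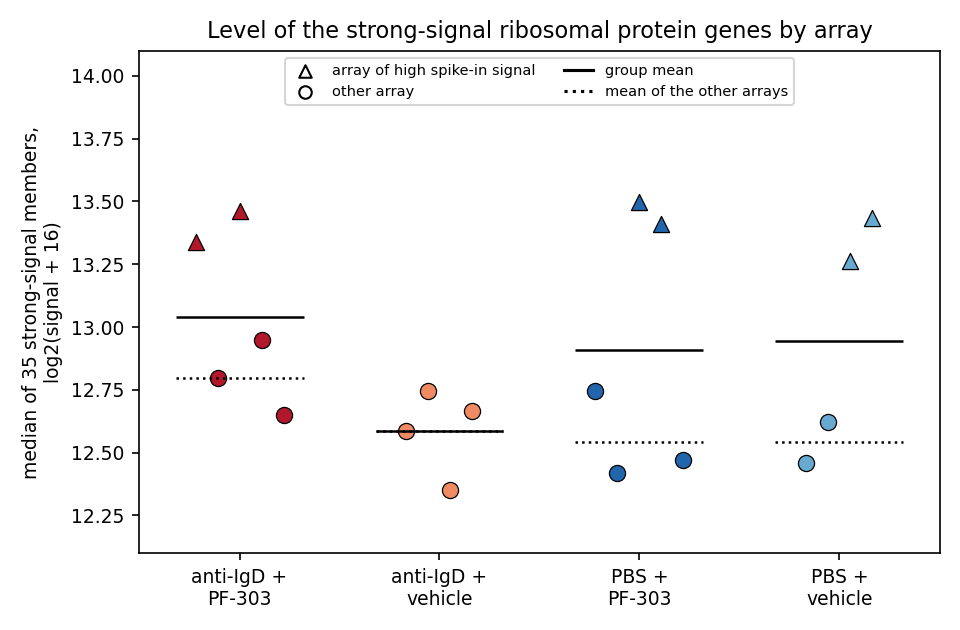
Median of the 35 strong-signal members on each array, as log2(signal + 16), with triangles for the 6 arrays of high spike-in signal, solid lines for group means and dotted lines for the means of the other arrays. The triangles lie between 13.26 and 13.50 and every circle lies at or below 12.95.

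Receptor crosslinking in vehicle-treated mice was followed by higher signals of 5 ribosomal protein genes and by a lower signal of 1. Those higher were Rpl12, Rps25 and Rpl7l1, by 0.62 to 1.18 on the log2 scale, and the paralogs Rps27l and Rpl39l. Rps2 was lower, and that call was lost without the arrays just described and also without replicate 5 of anti-IgD with vehicle. The calls are limma tests with Benjamini-Hochberg adjustment over 11106 genes at an adjusted p under 0.05. Over all genes 17.4% were called higher and 30.6% lower, so 5 and 1 of 46 members are shares below those of the array as a whole. Groups did not overlap for 4 of 46 members (8.70%), against 42.3% of all genes. At an unadjusted p under 0.05 there were 6 members, against 53.4% of all genes.

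Rpl12 encodes a protein at the base of the stalk of the large subunit, where elongation factors bind. Its signals were 922, 779, 934 and 941 with anti-IgD and vehicle, and 427, 387, 354 and 377 with PBS and vehicle. The groups did not overlap, and the log2 fold change was 1.18 ± 0.13 (SE; limma, adjusted p = 7.98e-08). It was 1.10 without the 6 arrays.

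Rps25 encodes a small-subunit protein that initiation at some viral internal ribosome entry sites needs. Its signals were 778, 703, 768 and 808 with anti-IgD and vehicle, against 426, 404, 497 and 484 with PBS and vehicle. All 4 stimulated samples lay above all 4 resting ones, a log2 fold change of 0.74 ± 0.08 (limma, adjusted p = 7.66e-08; 0.85 without the 6 arrays). Rpl7l1 is a paralog of Rpl7 whose human protein is part of large-subunit precursors in the nucleolus. Its signals were 707, 689, 750 and 775 with anti-IgD and vehicle and 469, 505, 467 and 441 with PBS and vehicle, again without overlap. The log2 fold change was 0.62 ± 0.07 (limma, adjusted p = 3.35e-07), and the gene's other probe sets gave 0.55 each.

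Rps27l is a paralog of Rps27 and a p53 target gene. Its signals were 1742, 2009, 1595 and 1970 with anti-IgD and vehicle and 1495, 1460, 1343 and 1224 with PBS and vehicle. The groups did not overlap and differed by 0.40 ± 0.09 on the log2 scale (limma, adjusted p = 0.000766; 0.30 without the 6 arrays). All 3 of its probe sets were called with all arrays, with log2 fold changes of 0.40, 0.41 and 0.46. The last 2 of these were 0.24 and 0.26 without the 6 arrays and then not called (adjusted p = 0.0525 and 0.0563). Rpl39l, the paralog of Rpl39 known from male germ cells, had signals of 30.2, 36.7, 23.3 and 9.0 with anti-IgD and vehicle and of 9.7, 3.7, 4.3 and 16.5 with PBS and vehicle. These signals lie near the filter's limit of 15.2 and the groups overlap. The fitted log2 fold change was 0.71 ± 0.23 (limma, adjusted p = 0.0146), and it was not called without replicate 2 of anti-IgD with vehicle or with the row of the code in the sample descriptions as a block (adjusted p = 0.0598). It depended on the number added before the log, at 1.49 with 1 and 0.29 with 64.

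Rps2 encodes a small-subunit protein near the channel through which the message enters. Its signals were 5366, 5844, 4777 and 1603 with anti-IgD and vehicle, and 4931, 5724, 8903 and 10010 with PBS and vehicle. The stimulated array at 1603 stood far below the rest, and the resting arrays of highest signal were those of high spike-in signal. The log2 fold change was -0.84 ± 0.34 (limma, adjusted p = 0.0429) with all arrays and -0.43 (adjusted p = 0.336) without the 6. It was also not called without replicate 5 of anti-IgD with vehicle.

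The other 40 members were not called. Their fitted values were mostly below 0 (40 of all 46 members lay below 0), with a median of -0.38 over the 46 (0.01 after quantile normalization), against -0.13 over all genes tested. The median standard error of a member was 0.24, against 0.129 over all genes. The median of the members was 0.01 without the 6 arrays, with 5 called higher and 0 lower, against 16.5% and 29.3% of all genes. Large-subunit and small-subunit members of strong signal had similar medians, -0.38 and -0.43. A set of 32 other genes with a mean signal of at least 5000 had a median of -0.40 with all arrays and 0.01 without the 6.

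Rplp0, the core of the stalk, illustrates the strong-signal members. It had signals of 6547, 6912, 5562 and 6813 with anti-IgD and vehicle and of 6015, 7084, 12390 and 14270 with PBS and vehicle. The groups overlap, and the resting replicates 3 and 4 set the higher mean. The log2 difference was -0.53 (95% interval -1.15 to 0.08; limma, adjusted p = 0.149), and -0.02 without the 6 arrays. Rpl13a, whose introns hold small nucleolar RNAs, differed by -0.49 (95% interval -1.03 to 0.05; limma, adjusted p = 0.126) and by -0.10 without those arrays.

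Other members with known roles outside bulk translation were likewise not called. Rps19, a gene mutated in Diamond-Blackfan anaemia, had a log2 fold change of -0.43 ± 0.23. Rpl11, whose protein can bind the p53 regulator MDM2, had -0.25 ± 0.19, and Rpsa, also known as a laminin receptor, had -0.33 ± 0.23. Rpl38, which mouse embryos need for translation of Hox messages, had -0.45 ± 0.28, Rplp2 of the stalk had -0.46 ± 0.31 and Rps29 had -0.49 ± 0.31. Rps6, the substrate of the S6 kinases, had signals of 548 to 660 with anti-IgD and vehicle and of 555 to 613 with PBS and vehicle, a difference with a 95% interval of -0.18 to 0.17.

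Paralogs were set side by side, each on its own probe set. Rpl7l1 was called higher and Rpl7 was not (-0.39 ± 0.24), Rpl39l was called higher and Rpl39 was not (-0.39 ± 0.28), and Rps27l was called higher and Rps27 was not (-0.05 ± 0.27). Neither Rpl22, which developing T cells of the mouse need, nor Rpl22l1 was called (-0.33 ± 0.21 and -0.17 ± 0.21). The X-linked Rps4x had -0.44 ± 0.30 and Rps4l -0.03 ± 0.25. The differences between the paralogs of a pair were not tested.

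**Figure D2:**
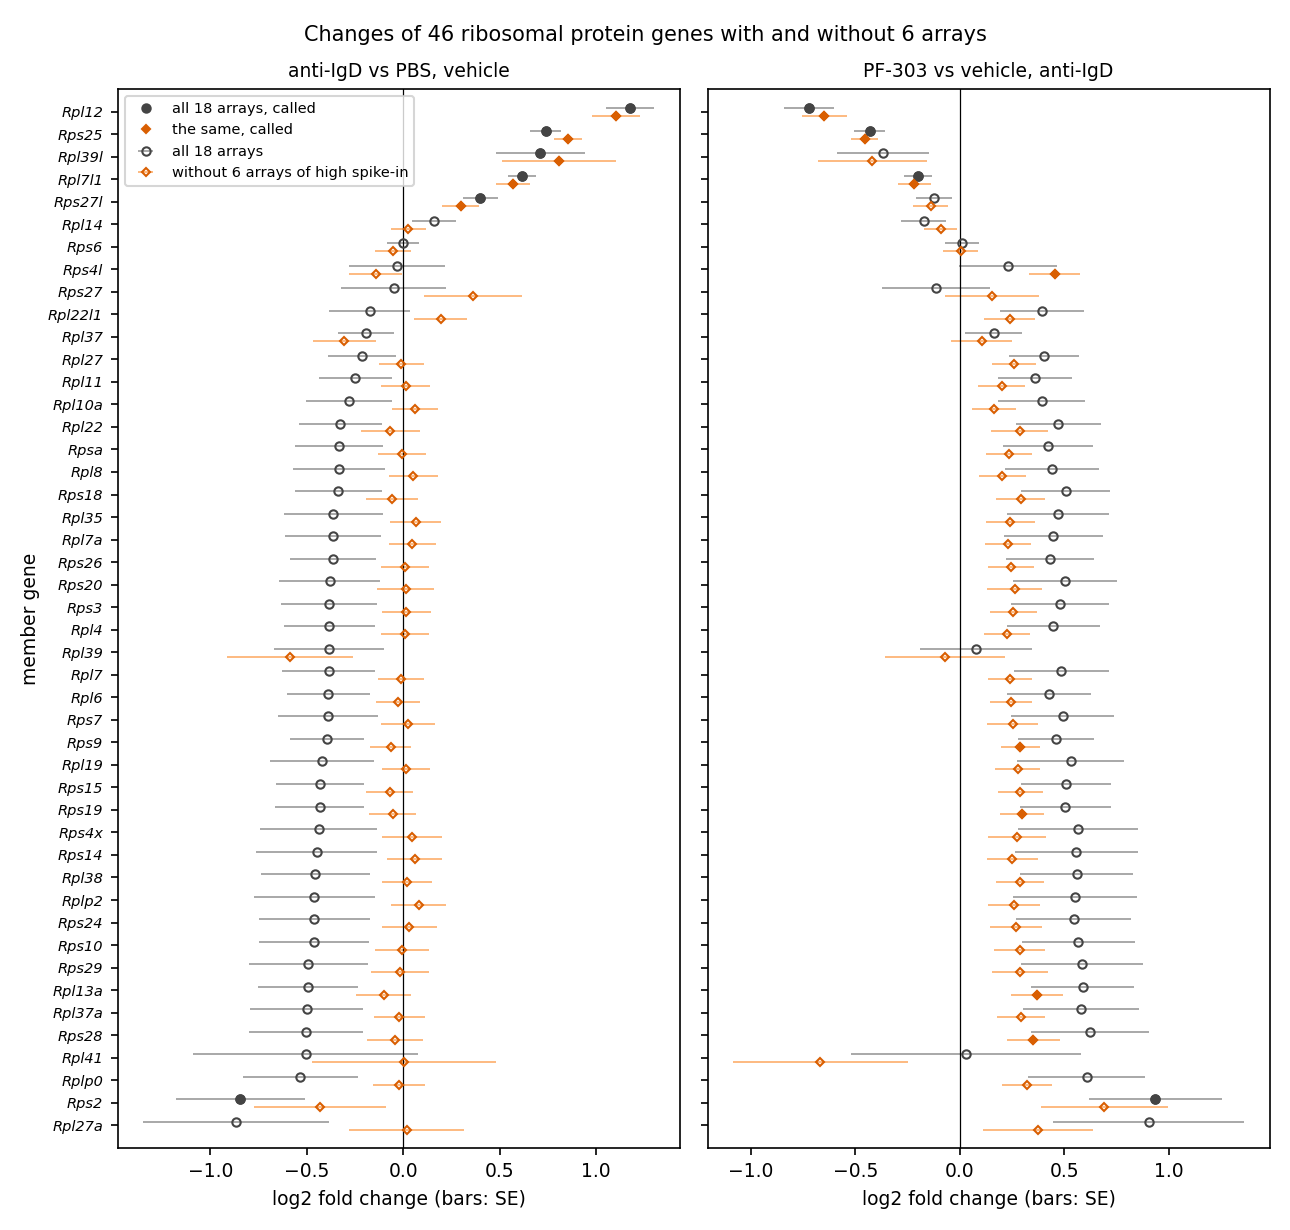
Log2 fold changes of the 46 tested members with standard errors, for anti-IgD over PBS with vehicle (left) and PF-303 over vehicle with anti-IgD (right); grey circles use all 18 arrays, orange diamonds leave out 6 arrays, and filled marks were called. Most strong-signal members lie between about -0.5 and 0 on the left with all arrays, and their median is 0.01 without the 6 arrays.

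In anti-IgD-treated mice, PF-303 lowered Rpl12, Rps25 and Rpl7l1, each of which anti-IgD had raised, and Rps2 was higher with the drug. Thus 3 of 46 members were called lower and 1 higher, where 10.4% of all genes were called lower and 19.8% higher. At an unadjusted p under 0.05 there were 18 of 46 members, a share near the 39.8% of all genes. The comparisons share the samples given anti-IgD and vehicle, so the opposite signs are not independent of each other.

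Rpl12 had signals of 474, 649, 517, 457 and 598 with anti-IgD and PF-303, against 922, 779, 934 and 941 with anti-IgD and vehicle. No sample with the drug reached the lowest one without it, and the log2 fold change was -0.72 ± 0.12 (limma, adjusted p = 7.60e-05; -0.65 without the 6 arrays). Rps25 had 536, 555, 620, 548 and 555 with anti-IgD and PF-303, against 778, 703, 768 and 808 with anti-IgD and vehicle. These groups did not overlap either, and the log2 fold change was -0.43 ± 0.07 (limma, adjusted p = 0.000123).

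Rpl7l1 had 642, 708, 647, 573 and 602 with anti-IgD and PF-303, against 707, 689, 750 and 775 with anti-IgD and vehicle. The groups overlap in 1 sample of the drug group, and the log2 fold change was -0.20 ± 0.07 (limma, adjusted p = 0.0316). This call was lost when replicate 4 or 5 of either group was left out. It was also lost after quantile normalization (adjusted p = 0.0601), a shift of the arrays to one median (0.0822), scaling to the members' median (0.19), with the row block (0.0807) and with the spike-in signal as a covariate (0.0696). The gene's other probe sets gave -0.38 and -0.35.

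Rps2 had 9282, 6429, 10240, 6993 and 5769 with anti-IgD and PF-303, against 5366, 5844, 4777 and 1603 with anti-IgD and vehicle. The groups overlap, and the highest values belong to the arrays of high spike-in signal. The log2 fold change was 0.94 ± 0.32 (limma, adjusted p = 0.0297), and 0.69 (adjusted p = 0.0929) without the 6 arrays. It was also not called without replicate 5 of anti-IgD with vehicle.

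Most of the remaining members had positive values that were not called, and the median was 0.47 over the 46 (-0.0011 after quantile normalization) against 0.08 over all genes. Rplp0 had signals of 11780, 7863, 14810, 9239 and 7175 with anti-IgD and PF-303, against 6547, 6912, 5562 and 6813 with anti-IgD and vehicle. Its groups did not overlap, and the log2 difference was 0.61 ± 0.28 (limma, adjusted p = 0.111). Groups did not overlap for 14 of 46 members (30.4%), against 26.8% of all genes, 2 of them lower with the drug (Rpl12 and Rps25) and 12 higher.

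Leaving out the 6 arrays gave a median of 0.25 over the members, with 5 called higher and 3 lower, against 21.1% and 10.8% of all genes. Those higher were Rpl13a (0.37, limma, adjusted p = 0.0328), Rps28 (0.35, 0.0443), Rps19 (0.30, 0.0428), Rps9 (0.29, 0.0257) and Rps4l (0.45, 0.00885). With all arrays and the spike-in signal as a covariate, the median was 0.09 and no member was called higher. The 32 other genes of signal at least 5000 had a median of 0.49 with all arrays and 0.27 without the 6, of which 4 were called higher with all arrays. Rps27l (-0.12, 95% interval -0.30 to 0.05), Rpl39l (-0.37 ± 0.22) and Rps6 (0.01 ± 0.08) were not called.

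**Figure D3:**
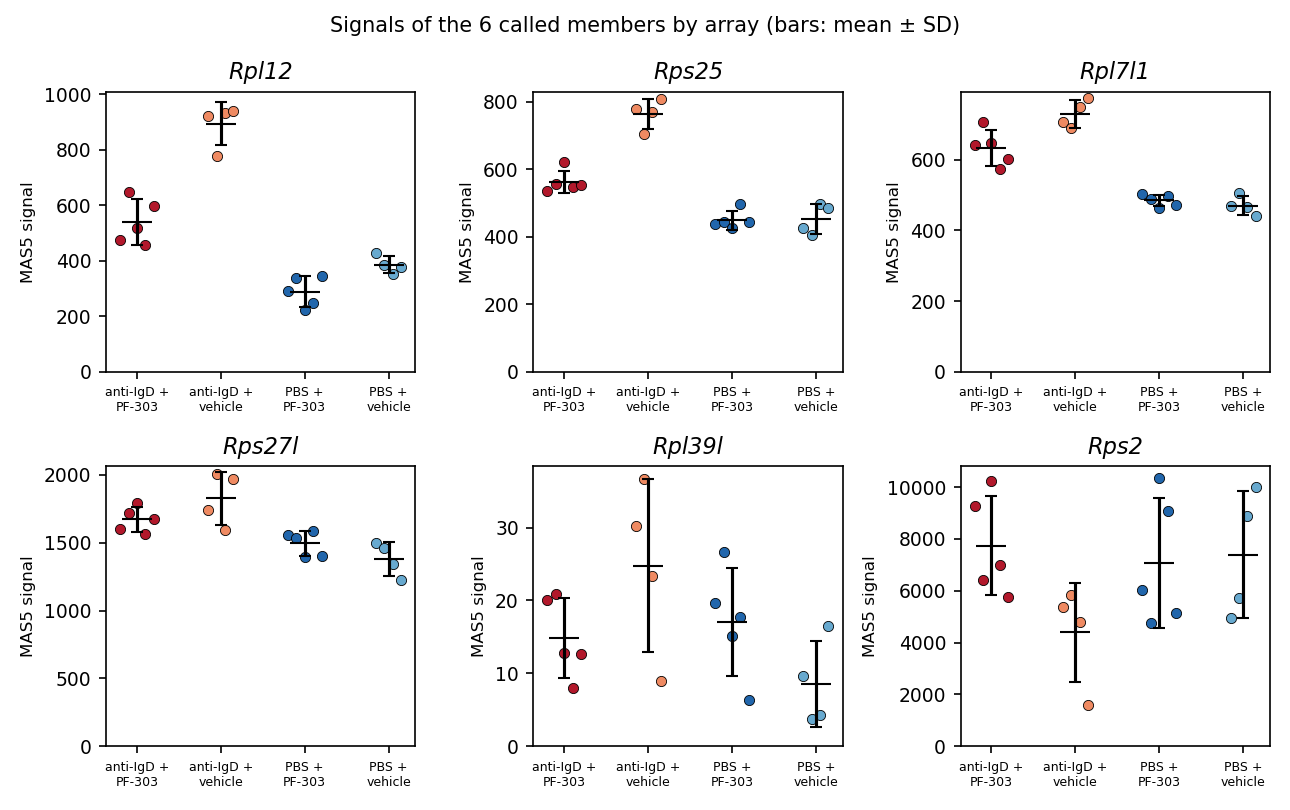
MAS5 signals of the 6 members called in any comparison, a point for each array, with bars for the mean ± SD of each group (n = 5, 4, 5 and 4). For Rpl12 the means were 539 in anti-IgD with PF-303, 894 in anti-IgD with vehicle, 289 in PBS with PF-303 and 386 in PBS with vehicle.

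In mice given PBS, PF-303 moved no member past the threshold. Over all genes 0.072% were called higher and 0.675% lower, and 1 member had an unadjusted p under 0.05, against 10.6% of all genes. No member was called without the 6 arrays either, against 0.018% of all genes higher and 0.396% lower. The member of low unadjusted p was Rpl12, with signals of 290, 339, 221, 249 and 346 with PBS and PF-303, against 427, 387, 354 and 377 with PBS and vehicle. Its groups did not overlap, as for 1 of 46 members (2.17%) and 4.11% of all genes, and the log2 difference was -0.41 (95% interval -0.66 to -0.17; limma, adjusted p = 0.122). The median over the members was -0.02, against 0.01 over all genes. Rps25 differed by -0.01 (95% interval -0.16 to 0.15) and Rplp0 by -0.08 (95% interval -0.66 to 0.51), the wider interval belonging to the strong-signal gene.

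Under PF-303 anti-IgD still raised 3 members, Rpl12, Rpl7l1 and Rps25, and lowered none, where 14.7% of all genes were called higher and 19.1% lower. At an unadjusted p under 0.05 there were also 3, against 41.7% of all genes. Rpl12 averaged 539 ± 82.5 (SD, n = 5) with anti-IgD and PF-303, against 289 ± 54.5 (n = 5) with PBS and PF-303, and the log2 fold change was 0.87 ± 0.11 (limma, adjusted p = 2.30e-06). Rpl7l1 averaged 634 ± 51.0 with anti-IgD and PF-303 and 485 ± 16.3 with PBS and PF-303, a log2 fold change of 0.37 ± 0.06 (limma, adjusted p = 9.90e-05). Rps25 averaged 563 ± 33.1 with anti-IgD and PF-303 and 449 ± 28.0 with PBS and PF-303, a log2 fold change of 0.32 ± 0.07 (limma, adjusted p = 0.00118). In all 3 genes the groups did not overlap, which held for 3 of 46 members (6.52%) and 24.8% of all genes. Rps27l (0.16 ± 0.08) and Rpl39l (-0.09 ± 0.21) were not called, and the median over the members was 0.13, against -0.05 over all genes. It was 0.26 without the 6 arrays and -0.0006 after quantile normalization. Leaving out the 6 arrays, 5 members were called higher and 0 lower, against 13.6% and 17% of all genes, with Rps4l (0.47) and Rps27 (0.67) added. In the anti-IgD and PF-303 arrays kept, Rps27 had signals of 68.7, 194 and 73.2, so that 1 array stood far above the others.

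Whether anti-IgD acted differently under PF-303 and under vehicle was tested directly. Rps25 was the only member called, with a response smaller under the drug by 0.42 on the log2 scale (difference -0.42, 95% interval -0.64 to -0.20; limma, adjusted p = 0.0134), where 3.12% of all genes were called lower and 6.66% higher. The difference was -0.54 (adjusted p = 0.00579) without the 6 arrays, where again 1 member was called lower and 0 higher, against 1.9% and 4.54% of all genes. With the row block it was -0.45 and not called (adjusted p = 0.102). For Rpl12 the difference was -0.31 (95% interval -0.66 to 0.04; limma, adjusted p = 0.274), so its response under the drug was not shown to be smaller. Rpl7l1 (-0.24), Rps27l (-0.24) and Rpl39l (-0.80) were not called. The strong-signal members had a median difference of 0.52 with all arrays and 0.25 without the 6, none called.

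Many members have further probe sets, and these did not all behave alike. All 97 probe sets past the filter were therefore fitted among 24951 probe sets, each adjusted over that table. Of 28 with a mean signal under 1000, from 21 genes, 15 (10 genes) were called higher after anti-IgD with vehicle and 0 lower, with a median of 0.48. Among all probe sets of that signal range 16.4% were called higher and 23.4% lower. A probe set near the filter could pass through the group in which it was high, so the count is a description. Of the 28, 21 exceeded the filter's limit on all 18 arrays, and 10 of those were called higher. Without the 6 arrays 14 of the 28 were called higher and 1 lower, with a median of 0.41, against 15.3% and 22.2% of all probe sets of that range.

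Of 69 probe sets with a mean signal of at least 1000, from 35 genes, 3 were called higher, all of Rps27l, and 1 lower, that of Rps2, against 22.9% and 24% of all probe sets of that range. Their median was -0.39, and it was 0.01 without the 6 arrays, with 1 called higher and 0 lower, against 23.7% and 21.7%. With PF-303 in anti-IgD-treated mice, 13 of the 28 weak probe sets (8 genes) were called lower and 0 higher, with a median of -0.28, against 13% lower and 12.6% higher among all probe sets of that range. Without the 6 arrays 9 were called lower and 1 higher, against 12.7% and 13.5% of all. Of the 69 strong probe sets 2 were called higher and 0 lower, against 22.6% and 9.88% of all, and the median was 0.49. Leaving out the 6 arrays, 5 were called higher and 0 lower, against 24.9% and 11.3% of all.

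Rps10 shows the disagreement within a gene. Its weak probe set averaged 105 in anti-IgD with PF-303, 161 in anti-IgD with vehicle, 70.6 in PBS with PF-303 and 77.2 in PBS with vehicle. The log2 fold changes were 0.94 ± 0.15 for anti-IgD in vehicle-treated mice (limma, adjusted p = 2.46e-05) and -0.55 ± 0.14 for PF-303 in anti-IgD-treated mice (adjusted p = 0.00644). Its strongest probe set, used above, averaged 10600 in anti-IgD with PF-303, 6968 in anti-IgD with vehicle, 10060 in PBS with PF-303 and 10030 in PBS with vehicle, with log2 fold changes of -0.46 ± 0.29 and 0.57 ± 0.27 that were not called. The probe sets of this gene thus gave values of opposite sign, of which those of the weak one passed the test. Without the 6 arrays the strongest was still not called with PF-303 (0.29), but 3 other strong probe sets of Rps10 were called higher, at 0.34, 0.30 and 0.32 (limma, adjusted p = 0.0371, 0.0495 and 0.0495).

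Rpl41, the gene of a very short basic protein, did likewise. Its weak plain-suffix probe set averaged 333 in anti-IgD with PF-303, 425 in anti-IgD with vehicle, 238 in PBS with PF-303 and 236 in PBS with vehicle, with log2 fold changes of 0.80 ± 0.12 for anti-IgD and -0.33 ± 0.11 for PF-303 (limma, adjusted p = 1.07e-05 and 0.0356), of which the second was not called without the 6 arrays (-0.32). Its strongest probe set had -0.51 ± 0.58 and 0.03 ± 0.55, and single arrays of it stood apart, at 1081 in anti-IgD with PF-303 and at 1413 in PBS with PF-303. For Rps9, the weak probe set had 0.52 ± 0.10 and -0.65 ± 0.10 (limma, adjusted p = 0.00023 and 3.09e-05), and the strong one -0.39 ± 0.19 and 0.46 ± 0.18. A weak probe set of Rps18 had 0.68 ± 0.19 and -0.62 ± 0.18, against -0.34 ± 0.22 and 0.51 ± 0.21 for the strongest of its probe sets. The mean signal of this weak probe set was 29.7, near the filter's limit of 15.2.

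The weak probe sets just given and those of Rpl12, Rps25 and Rpl7l1 carry the plain suffix. Weak probe sets of Rpl41 and Rps18 with the suffix _x_at were called in the same directions, that of Rps18 at 0.55 after anti-IgD and -0.56 with PF-303. When only plain-suffix probe sets were used, 24 members remained, and 10 of them were called higher after anti-IgD with vehicle: Rpl12, Rps10, Rpl41, Rps25, Rpl39l, Rps18, Rpl7l1, Rpl35, Rps9 and Rps24. Under this selection 17.1% of all genes were called higher and 30.7% lower. With PF-303 in anti-IgD-treated mice 7 of the 24 were called lower, namely Rpl12, Rps9, Rps18, Rps10, Rps25, Rpl41 and Rpl7l1, against 10.7% of all genes lower and 19.1% higher. Which part of a transcript, which transcript or which pseudogene each probe set reads was not tested. For Rps9, Rps10, Rps18, Rpl41, Rpl35 and Rps24 the call therefore depended on the probe set. So did that of Rpl37a with PF-303 in anti-IgD-treated mice. Its weak probe set had -0.55 (limma, adjusted p = 0.00257) and its strongest 0.58, not called. Rpl12 and Rps25 each had only 1 probe set of a single symbol, so their calls could not be compared between probe sets.

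**Figure D4:**
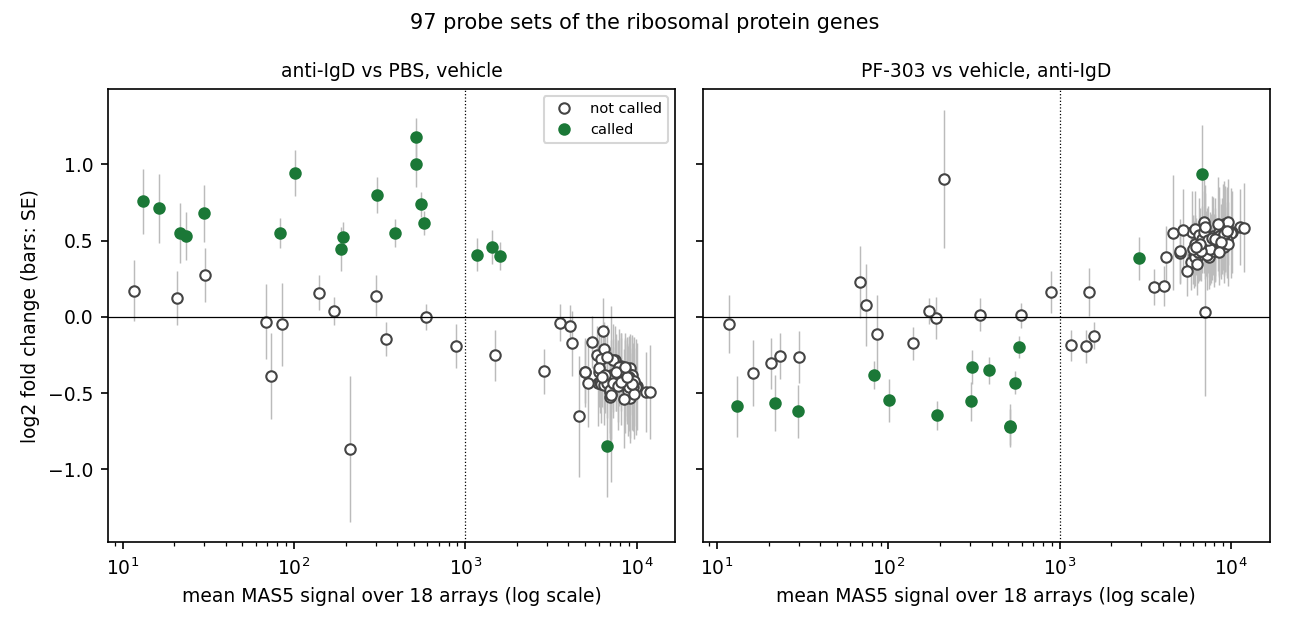
Log2 fold change with standard error of each of the 97 ribosomal protein probe sets against its mean MAS5 signal (log axis), for anti-IgD over PBS with vehicle (left) and PF-303 over vehicle with anti-IgD (right); green points were called and the dotted line is a mean signal of 1000. Left of the line 15 probe sets were called higher after anti-IgD and 13 lower with PF-303.

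Genes that serve the ribosomal proteins were followed from lists, to be read against the 17.4% of all genes called higher and 30.6% lower after anti-IgD in vehicle-treated mice. These shares were 19.8% and 10.4% with PF-303 in anti-IgD-treated mice. Of 18 dedicated chaperones, importers and assembly factors, 13 rose and 1 fell after anti-IgD in vehicle-treated mice, with a median of 0.89. Grwd1, the chaperone of Rpl3, rose by 1.53 ± 0.13 and Heatr3, which in human cells brings RPL5 into the nucleus, by 1.25 ± 0.17. Pdcd2l, a relative of the Rps2 chaperone Pdcd2, fell by 0.57 ± 0.09 on the log2 scale. With PF-303 in anti-IgD-treated mice 12 of the 18 fell and 2 rose, with Grwd1 at -0.996 ± 0.121 and Mdn1, a large ATPase of large-subunit maturation, at -0.84 ± 0.13. Under PF-303 anti-IgD still raised 12 and lowered 1, where 14.7% of all genes were called higher and 19.1% lower.

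Of 19 translation factors and related genes that share the TOP start, 2 rose and 1 fell after anti-IgD in vehicle-treated mice, with a median of -0.09. Eif2s3x, a subunit of the initiation factor that brings the first tRNA, rose by 0.35 (limma, adjusted p = 0.00629). The values of Hnrnpa1 (0.35) and of the elongation factor gene Eef2 (-0.40) were called with all arrays, and were 0.14 and -0.14 without the 6 arrays and then not called. With PF-303 in anti-IgD-treated mice Hnrnpa1 fell by 0.37 and no other gene of this list was called. Fau and Rps3a1, ribosomal protein genes that the naming rule leaves out, were called in no comparison.

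Of 15 genes in the control of TOP messages by mTORC1, 4 rose and 5 fell after anti-IgD in vehicle-treated mice. Larp1, which binds the TOP start, rose by 0.97 ± 0.11 (limma, adjusted p = 2.16e-07) and Larp4, which binds poly(A) tails, by 0.67 ± 0.07. Sesn1 and Ddit4, whose products restrain mTORC1, fell by 1.49 ± 0.09 and 1.03 ± 0.18 on the log2 scale. With PF-303 in anti-IgD-treated mice Ddit4 (1.27 ± 0.17) and Sesn1 (0.50 ± 0.09) were higher and Larp4 (-0.60 ± 0.07) and Larp1 (-0.53 ± 0.10) lower. In all, 3 of the 15 were called higher and 3 lower with the drug. The counts of this list lie near the shares of all genes.

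Of 9 transcription factors linked to ribosomal protein genes, 2 rose and 3 fell after anti-IgD in vehicle-treated mice, near the shares of all genes. Myc rose by 2.44 ± 0.13, while the ETS-family gene Gabpa at 0.29 was not called without the 6 arrays (0.10). Sp3 fell by 0.55 on the log2 scale, and Zbtb7a at -0.49 was not called without the 6 arrays (-0.29). With PF-303 Myc was lower both in anti-IgD-treated mice (-1.65 ± 0.13) and in PBS-treated mice (-0.96 ± 0.13; limma, adjusted p = 0.000137).

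Of 12 genes that sense stalled ribosomes or clear surplus ribosomal proteins, 6 rose and 1 fell after anti-IgD in vehicle-treated mice. Hbs1l, a rescue factor for stalled ribosomes, rose by 0.77 ± 0.10, Usp10, a deubiquitinase of small-subunit proteins, rose by 0.53 ± 0.11, and Usp21 fell by 0.55 ± 0.12. With PF-303 in anti-IgD-treated mice 6 fell and 0 rose, with Hbs1l at -0.44 ± 0.09 and the ubiquitin ligase gene Huwe1 at -0.39 ± 0.08. Proteins of the mitochondrial ribosome come from a separate set of genes, of which 76 were tested. After anti-IgD with vehicle 28 of these rose and 10 fell, with a median of 0.10, and with PF-303 in anti-IgD-treated mice 9 rose and 10 fell, with a median of 0.01. The share of these that fell with PF-303 is near that of all genes.

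In these bulk samples fewer cells of a type and less RNA per cell cannot be told apart. The MAS5 signals were also scaled to a common mean on each array, so a level is relative to the rest of the array. The summed signal of the B-cell markers was 16400 to 24500 in anti-IgD with PF-303, 11700 to 14200 in anti-IgD with vehicle, 16500 to 29100 in PBS with PF-303 and 16400 to 30900 in PBS with vehicle. The range in anti-IgD with vehicle thus lay wholly below those of the other groups. The summed signal of the macrophage markers was 1390 to 3030 in anti-IgD with PF-303, 806 to 2960 in anti-IgD with vehicle, 1240 to 2220 in PBS with PF-303 and 1370 to 1940 in PBS with vehicle, and these ranges overlap. The 2 germinal-centre markers found summed to 388 to 554 in anti-IgD with PF-303, 476 to 552 in anti-IgD with vehicle, 567 to 949 in PBS with PF-303 and 551 to 933 in PBS with vehicle, lower after anti-IgD with no overlap under PF-303. The part of these markers in the results was not tested.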

How the data were processed

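Each deposited value is the linear intensity of a probe set, made by the authors with MAS5 per the submitters' processing notes; version and settings are not given in the sources used here. All 18 arrays had a common 2%-trimmed mean. Per the labels' protocols, 150 ng of RNA per sample was labelled with a kit that copies transcripts from their 3′ ends. No 2 arrays were alike: the smallest SD of log2 differences was 0.262. The number of arrays limits the precision.

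Signals were taken as log2(signal + 16), which understates changes of low signals. Of 45101 probe sets, 64 controls were left out; 34945 carry 1 gene symbol and 932 carry several. The members had 104 probe sets of 1 symbol, and 110 that name a ribosomal protein gene among several symbols were not used. Probe sets had to exceed 15.2, the median of all signals, on 4 or more arrays, and the one of highest mean stood for its gene. limma 3.58.1 (lmFit, eBayes with a trend; statmod 1.5.0, R 4.3.3) was fitted to 4 group means over all 18 arrays, two-sided, with Benjamini-Hochberg adjustment over 11106 genes and calls at an adjusted p under 0.05. On simulated data for anti-IgD over PBS with vehicle, 43% of 100 changes of 0.5 and 93% of 100 changes of 1 were called. Of unchanged genes 0.0642% were called. These shares are for genes at large, with a median standard error of 0.129, against 0.24 for the members. They do not give the share for the members, and far fewer genes were changed in the simulation than were called in the data.

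The members and all lists were chosen with earlier results of these data known. Named were the 6 called members with the largest change per direction and comparison, the 3 of highest mean signal, a list of members and paralogs, and, per companion list, the 2 called genes with the largest change in each direction. The weak probe sets of single genes, and members called without the 6 arrays, were chosen after their values were seen. Promoter sequences are from RefSeq (GRCm38.p6), with the first listed start of a gene.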

Additional observations from a re-analysis of the deposited data

Results flagged for a closer look

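Within groups of 4 or 5 arrays, 92 member-by-group sets of signals were examined for an array far from the others, by the gap to its nearest neighbour divided by the whole range. Chance gives about 1 in 20 such cases. In anti-IgD with PF-303, replicate 3 stood apart for Rps25 (ratio 0.760; 620 against 536 to 555), replicate 4 for Rps27 (0.777; 194 against 53.9 to 73.2) and replicate 5 for Rpl39 (0.806; 28.9 against 61.6 to 72.5). In anti-IgD with vehicle, replicate 5 stood apart for Rps2 (0.844; 1603 against 4777 to 5844). In the same group replicate 2 stood apart for Rpl12 (0.890; 779 against 922 to 941) and for Rps6 (0.864; 660 against 548 to 562). In PBS with PF-303, replicate 4 stood apart for Rps25 (0.738; 498 against 425 to 443) and Rps4l (0.730; 120 against 53.8 to 67.6). In PBS with vehicle, replicate 3 stood apart for Rpl39 (0.896; 41.7 against 88.0 to 95.4). Among the members, the responses to anti-IgD under PF-303 and under vehicle differed by the test of the difference itself for Rps25 (-0.42).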

How the results depend on the processing

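Among 3637 values under alternatives, which cover the counts, the medians and the named members, no called result reversed its direction. The medians of the member list changed sign under some scalings. Rps9 and Rps18 lie outside these values and were called in both directions with PF-303 in anti-IgD-treated mice. Rps9 had 0.29 without the 6 arrays and -0.65 with plain-suffix probe sets only. Rps18 had 0.50 after a shift to one array median and -0.62 with plain-suffix probe sets only. Of 1300 results of named members under alternatives other than leaving out an array, 31 changed their side of the threshold. Rpl12, Rps25, Rpl7l1 and Rps27l kept their rise after anti-IgD with vehicle, and Rpl12 its fall with PF-303 in anti-IgD-treated mice, under every alternative they were run in. After anti-IgD with vehicle, the count of members called lower was 0 without the filter, after quantile normalization, with plain-suffix probe sets only, with the replicate block, with the block by the row of the code in the sample descriptions, without the 6 spike-in-rich arrays, without the variance trend and with the spike-in signal as a covariate. With plain suffixes 10 were called higher, with a median of 0.0805. For PF-303 in anti-IgD-treated mice, the count called higher was 0 without the filter, after quantile normalization, with plain suffixes and with the covariate, and 5 after a shift to one array median or without the 6 arrays. The count called lower was 1 relative to the members' own median on each array and 7 with plain suffixes. The median was -0.0011 after quantile normalization, 0.0145 relative to the members' median and -0.0616 with plain suffixes. Scaling to the members' median gives the strong-signal members a common median on every array. Medians of the member list under that scaling were thus fixed near 0 in advance and test nothing. For anti-IgD under PF-303, the count called higher was 0 relative to the members' median, 6 with plain suffixes and 5 without the 6 arrays. For PF-303 in PBS-treated mice, 1 member, Rpl12, was called lower with the replicate block (-0.46; adjusted p = 0.046) and with the covariate (-0.44; adjusted p = 0.00955). For the difference between the responses, the count called lower was 0 relative to the members' median and with the row block, and 2 with the mean of a gene's probe sets. Its median was -0.0230 after quantile normalization, 0.0064 relative to the members' median (again fixed near 0), -0.1461 with plain suffixes and 0.0695 with the covariate. Same-numbered samples had a mean correlation of deviations of 0.029, against -0.006 for others. The labels state no pairing, so the replicate block is given here only. The numbers were not independent of the spike-in split, as each array of replicate number 3 was among the 6 of high spike-in signal. The covariate and the fit of probe sets were chosen after seeing the data.

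Leaving out an array in turn gave 4 to 5 members higher, 0 to 2 lower and a median of -0.53 to -0.22 after anti-IgD with vehicle. For PF-303 in anti-IgD-treated mice it gave 0 to 3 higher, 2 to 3 lower and a median of 0.38 to 0.55. For PF-303 in PBS-treated mice it gave 0 calls and a median of -0.18 to 0.14. For anti-IgD under PF-303 it gave 3 higher, 0 lower and a median of 0.01 to 0.26. For the difference between the responses it gave 1 to 2 lower and a median of 0.35 to 0.64. The call of Rps2 after anti-IgD with vehicle needed array 5 of the anti-IgD and vehicle group and arrays 3 and 4 of the PBS and vehicle group (-1.03 to -0.41). Its call with PF-303 in anti-IgD-treated mice needed arrays 1 and 3 of the drug group and array 5 of the other (0.51 to 1.13). The cause was not tested.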
